A study of Mus musculus with 6 samples.

Results

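The genes described here encode the machinery that imports proteins into mitochondria, builds and copies the mitochondrial genome, fuses and divides the organelle, and folds or removes its proteins. They were chosen by name as 39 members of these 4 systems, and all 39 were found among the 24421 gene symbols counted in each library. The study forced the expression of *Lmo3*, a LIM-domain transcriptional cofactor, in mature 3T3-L1 adipocytes, a mouse cell line that forms fat cells in culture, and asked by RNA-Seq how the transcripts of the fat cell change. Control cells received an adenovirus with *LacZ* (AdLacZ, 3 libraries), and the others an adenovirus with *Lmo3* (Ad*Lmo3*, 3 libraries). The 6 libraries came from separate infections. Infection took place on day 7 of differentiation at 100 pfu/cell, and RNA was taken 3 days (72 h) later. Both groups shared the same differentiation, which began 2 days after confluence with insulin (870 nM), TZD (5 µM), Dex (1 µM) and IBMX (500 µM) and went on from day 3 without IBMX and Dex, and the labels give the strain as C57BL/6. No uninfected cells were among the libraries, so every value below compares a virus with a virus in a single cell line.

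Most mitochondrial proteins are made in the cytosol and enter through the TOM complex of the outer membrane. The TIM complexes then sort them into or across the inner membrane, and the matrix chaperone mtHSP70 (*Hspa9*) pulls them in. Imported proteins are folded by HSP60 and HSP10 (*Hspd1* and *Hspe1*), and damaged ones are degraded by the AAA+ proteases LON (*Lonp1*) and CLPXP (*Clpp*). Import, folding and mitochondrial DNA copy number are controlled from the nucleus, where NRF1 and GABP bind the promoters of many of these genes. In white adipocytes mitochondria supply ATP and the citrate used for fatty acid synthesis.

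The libraries held 28035639 to 38332335 counts on genes, and 3 counts, taken as the smallest detectable number, corresponded to 0.0768 to 0.111 CPM, the unit of all levels below (counts scaled to library size after TMM normalization). A further 7.15% to 8.94% of reads lay in no gene. *Lmo3* had 0 counts in every library. The viral *Lmo3* was codon-optimized, so this gene could not check the labels. Adipocyte markers were present in both groups, with a summed level of 20678 to 22853 CPM in AdLacZ and 28131 to 33971 CPM in Ad*Lmo3* libraries, and 9 of 12 rose. The 9 preadipocyte or fibroblast markers summed to 15539 to 20005 CPM and 15397 to 23016 CPM, with none called. Among 5 macrophage or leukocyte markers the sums were 14.4 to 16.0 CPM and 11.6 to 14.5 CPM, and the defining genes *Ptprc* and *Adgre1* had at most 3 counts in any library. The 4 endothelial markers summed to 1.43 to 2.38 CPM in AdLacZ and 0.925 to 1.81 CPM in Ad*Lmo3* libraries. The higher adipocyte markers moved with the group in every comparison below, and their part in the results was not tested. In RNA from whole cultures, fewer cells of a type and less RNA per cell cannot be told apart.

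The promoters of the members are shown first, since NRF1 and GABP are members themselves. Of the 39 members, 36 were matched in the RefSeq promoter table (GRCm38.p6, 250 bases before each start and 300 in all), with 44 promoters, while *Tomm7*, *Tomm40l* and *Hspa9* were not matched. The NRF1 element, the palindromic core bound by nuclear respiratory factor 1 with any base at its centre, was searched on both strands and was found in 6 of the 44 member promoters (13.6%) and in 4.60% of all 32851 promoters. Counted by gene, 16.7% of the matched members (6 of 36) and 11.7% of the tested genes carried it. Those 6 stretches are printed in the direction of the gene, with the matched bases in capitals and with the GRCm38 position and strand.
*Hspd1*, chr1:55088283-55088312, minus strand: gccgcgcagcGCGCAGGCGCactcagcccc
*Tomm20*, chr8:126945922-126945951, minus strand: gggtccatctGCGCGTGCGCaccaggcgtt
*Timm8b*, chr9:50603909-50603938, plus strand: cgctgccaccGCGCGTGCGCaccccagcga
*Polrmt*, chr10:79746565-79746594, minus strand: gcaggcgGCGCGTGCGCGTGCGCactgcgg
*Phb*, chr11:95666977-95667006, plus strand: gagctgcctgGCGCACGCGCagtatccgga
*Opa1*, chr16:29579265-29579294, plus strand: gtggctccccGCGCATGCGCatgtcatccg
In *Polrmt* the capitals cover 2 overlapping matches. The matches of *Hspd1* and *Opa1* begin 59 bases before a transcription start, and that of *Tomm20* 20 bases before it. A match of letters is a description of the sequence and does not show that NRF1 binds there.

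Further windows are shown for *Hspe1* and *Lonp1*, which the results turn on, and for *Timm9*, the other member with a heat shock element outside the *Hspd1* and *Hspe1* locus. Both motifs were added after the promoters had been read, so their shares are a description and were not tested. The heat shock element, alternating TTC and GAA blocks searched on both strands, lay in 3 of 44 member promoters and in 0.603% of all promoters (3 of 36 matched members, and 0.599% of tested genes). The CRE-like element TGACGTAA, on both strands, lay in 4 of 44 (*Lonp1* and 3 starts of *Mfn2* that share the same bases) and in 0.499% of all promoters (2 of 36 matched members, and 1.02% of tested genes).
*Hspe1*, heat shock element, chr1:55088053-55088082, plus strand: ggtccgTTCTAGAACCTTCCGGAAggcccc
*Timm9*, heat shock element, chr12:71136856-71136885, minus strand: attaggctTTCTAGAAATTTCgacagattc
*Lonp1*, CRE-like element, chr17:56626892-56626921, minus strand: gcgagcagagaTGACGTAAgtgcggtgcgc
*Hspd1* and *Hspe1* lie head to head on chromosome 1, and the stretch shown for *Hspe1*, with 2 overlapping matches, is also the stretch found in the promoter of a downstream *Hspd1* start, read on the other strand. The C/EBP-ATF response element, searched as TGATGNAA, was in none of the 44 member promoters and in 3.97% of all promoters (2.71% of tested genes). For *Lonp1* the CRE-like match begins 7 bases before the start. The 2 members with this element differed in direction, with log2 fold changes of -0.74 for *Lonp1* and 0.22 for *Mfn2*.

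All 39 members had enough counts to be tested. By edgeR's quasi-likelihood test, adjusted over the 12766 genes tested, 4 of the 39 fell at an adjusted p under 0.05 and none rose, where 1.57% of all tested genes were called lower and 2.71% higher (4.28% in either direction). The 4 were *Lonp1*, *Hspa9*, *Hspe1* and *Nrf1*, of which 3 belong to the folding and degradation of matrix proteins. At an unadjusted p under 0.05 there were 12 members (30.8%), beside 20.6% of all tested genes. The 3 libraries of each group did not overlap in 15 members, 10 of them lower and 5 higher in Ad*Lmo3*, against 26.5% of all tested genes (13.2% lower, 13.3% higher). The median log2 fold change of the members was -0.02, and that of all tested genes 0.00. The summed level of the members was 5896 to 6531 CPM in AdLacZ and 5053 to 5348 CPM in Ad*Lmo3* libraries. Without *Hspa9* and *Lonp1* it was 3273 to 3368 CPM and 3239 to 3267 CPM. For 36 of the 39 members the 95% confidence interval of the fold change stayed within 1.5-fold in either direction. The same held for 9212 of the 12766 tested genes. The number of members called lower went from 4 to 2 without AdLacZ replicate 1 or Ad*Lmo3* replicate 1, to 1 without Ad*Lmo3* replicate 2 or 3, and to 0 without AdLacZ replicate 2 or 3.

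**Figure D1:**
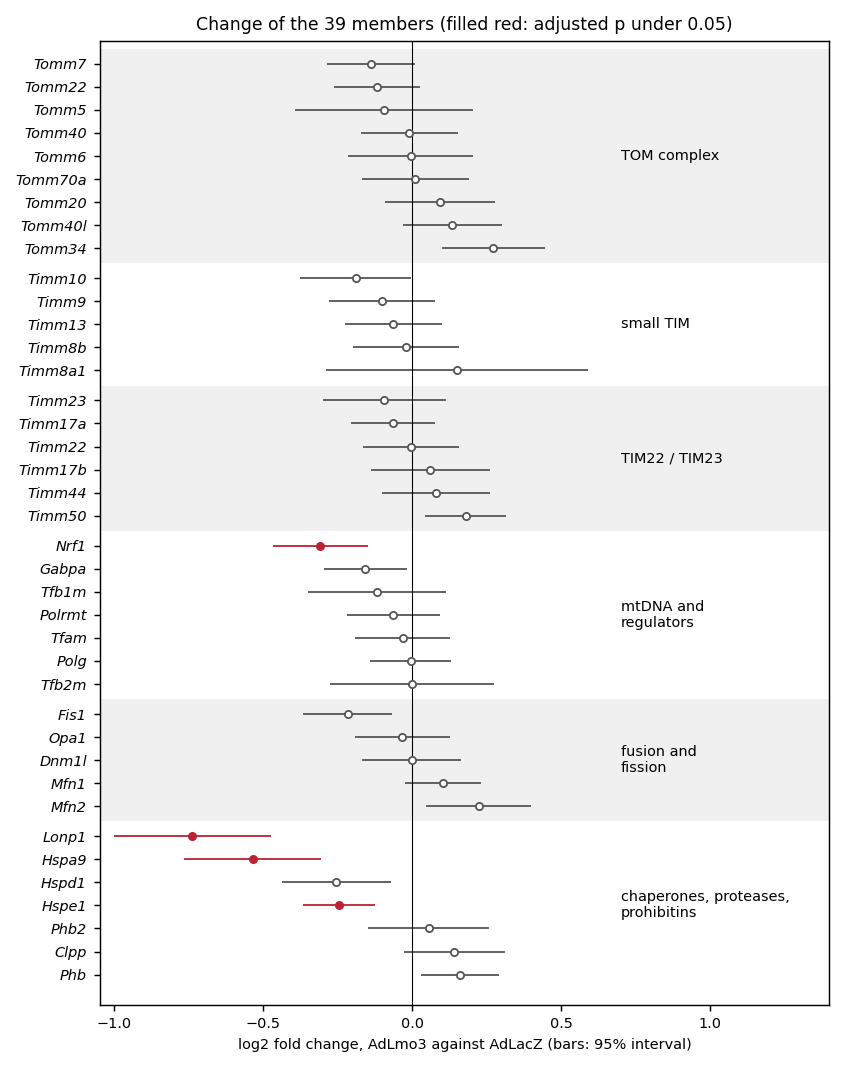
Log2 fold change of each of the 39 members in AdLmo3 against AdLacZ libraries (x axis; points, estimates; bars, 95% confidence intervals), in blocks by role on the y axis, with the 4 members under an adjusted p of 0.05 filled in red. Lonp1 (-0.74) and Hspa9 (-0.54) lie farthest to the left, and the 20 import members scatter on both sides of 0.

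*Lonp1* encodes the LON protease of the matrix, which degrades oxidized and misfolded proteins. It lies on chromosome 17 (GRCm38, 56614297 to 56626887, minus strand). Its level was 743, 940 and 881 CPM in AdLacZ replicates 1, 2 and 3, and 526, 561 and 450 CPM in Ad*Lmo3* replicates 1, 2 and 3. The highest Ad*Lmo3* library stayed below the lowest AdLacZ library. The mean fell from 855 ± 101 to 512 ± 56.6 CPM (SD, n = 3 each), to 60.0% of the control. The log2 fold change was -0.74 (standard error 0.115, 95% interval -1.002 to -0.474, adjusted p = 0.0140 from edgeR), which is 1.67-fold lower. The call was lost without AdLacZ replicate 2 (adjusted p = 0.0504) and without AdLacZ replicate 3 (adjusted p = 0.0791), with 4 of 6 such fits keeping it. None of its 75-base stretches occurs unchanged in an annotated transcript of another gene. Copies with mismatches or outside the annotation were not searched.

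*Hspa9* encodes mtHSP70, also called mortalin, the motor of import into the matrix and a folding chaperone. It lies on chromosome 18 (34937414 to 34954357, minus strand). The AdLacZ libraries held 1881, 2249 and 2267 CPM, and the Ad*Lmo3* libraries 1555, 1493 and 1362 CPM, in replicate order. Again the groups were apart, with AdLacZ replicate 1 nearest to the Ad*Lmo3* libraries. The mean fell from 2132 ± 218 to 1470 ± 98.8 CPM (SD, n = 3 each), 1.45-fold, with a log2 fold change of -0.54 (standard error 0.0995, 95% interval -0.77 to -0.31, edgeR adjusted p = 0.0255). The adjusted p was 0.0742 without AdLacZ replicate 2, 0.124 without AdLacZ replicate 3, 0.105 without Ad*Lmo3* replicate 2 and 0.0740 without Ad*Lmo3* replicate 3.

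*Hspe1* encodes HSP10, the lid of the HSP60 folding chamber, and lies on chromosome 1 (55088132 to 55091307, plus strand). Its level was 68.5, 70.3 and 68.9 CPM in AdLacZ and 58.8, 58.2 and 58.0 CPM in Ad*Lmo3* libraries. The replicates of each group lay close together, and the groups did not overlap. A spread taken from 3 libraries is itself uncertain. The mean fell from 69.2 ± 0.939 to 58.4 ± 0.420 CPM (SD, n = 3 each), 1.19-fold. The log2 fold change was -0.25 (standard error 0.0526, 95% interval -0.37 to -0.13, edgeR adjusted p = 0.0417). No fit without a single library kept the call (adjusted p from 0.0856 to 0.148). It was also lost in edgeR without the filter on low counts (adjusted p = 0.0679) and with the replicate number as a block (0.0727). Other genes contain 14.6% of its 75-base stretches, among them *Hspd1* and a pseudogene.

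*Hspd1* encodes HSP60, the chamber itself, and is the head-to-head neighbour of *Hspe1* (chromosome 1, 55077835 to 55088243, minus strand). It had 550, 580 and 644 CPM in AdLacZ and 504, 478 and 504 CPM in Ad*Lmo3* libraries, with no overlap between the groups. Its log2 fold change of -0.26 (standard error 0.0793, edgeR adjusted p = 0.119) was of the size seen for *Hspe1* but did not pass the threshold, whereas DESeq2 called it (adjusted p = 0.0348, in a test that called 8.87% of genes). Other genes, *Hspe1* among them, contain 31.0% of its stretches, so that its count is less certain. Levels per length here divide counts by all annotated exons of a gene, merged. On that scale the level of *Hspd1* was 4.77 ± 0.396 times that of *Hspe1* in AdLacZ and 4.73 ± 0.136 times in Ad*Lmo3* libraries (SD, n = 3 each). The ratios of the groups overlapped.

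**Figure D2:**
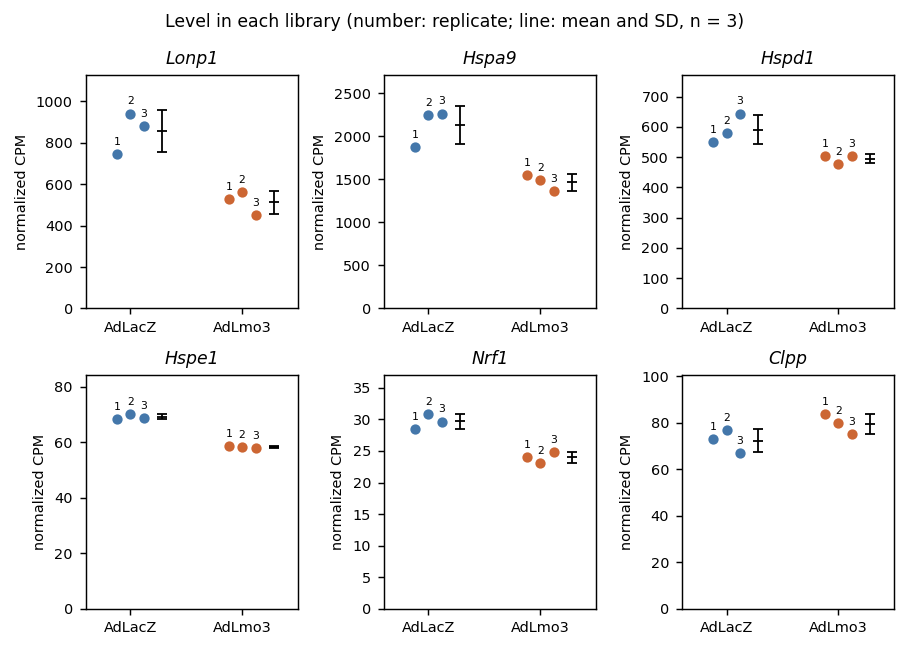
Normalized CPM (y axis, from 0) of 6 quality control and regulator genes in each library, by group on the x axis, with the replicate number beside each point and the mean and SD of the 3 replicates as bars. In the panels of Lonp1, Hspa9, Hspd1, Hspe1 and Nrf1 the AdLmo3 points all lie below the AdLacZ points, and in that of Clpp the groups overlap.

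None of the other quality control members was called. *Clpp*, the protease subunit of CLPXP, had 72.9, 76.8 and 66.9 CPM in AdLacZ and 83.9, 79.9 and 75.2 CPM in Ad*Lmo3* libraries, and the groups overlapped (log2 fold change 0.14, edgeR adjusted p = 0.332). Within a library, the level of *Lonp1* per length of merged exons was 2.85, 3.42 and 3.68 times that of *Clpp* in AdLacZ and 1.75, 1.96 and 1.67 times in Ad*Lmo3* libraries. The 2 matrix proteases were thus closer in level in every Ad*Lmo3* library than in any AdLacZ library, with mean ratios of 3.32 ± 0.425 and 1.80 ± 0.149 (SD, n = 3 each). The ratio of *Hspa9* to *Hspd1* was likewise lower, at 2.21 ± 0.148 in AdLacZ and 1.82 ± 0.142 in Ad*Lmo3* libraries, without overlap. The prohibitins form ring scaffolds in the inner membrane. *Phb* had 62.3, 59.2 and 61.9 CPM in AdLacZ and 68.3, 70.3 and 66.3 CPM in Ad*Lmo3* libraries, all higher, but with a log2 fold change of 0.16 it did not pass the threshold (edgeR adjusted p = 0.162), and 28.5% of its stretches occur in other genes. Its partner *Phb2* had a log2 fold change of 0.05 (edgeR adjusted p = 0.780). Of the 7 chaperones, proteases and prohibitins, 3 fell and none rose by edgeR, where 1.57% of all tested genes were called lower, and DESeq2 also called *Hspd1* lower. In 5 of the 7 the groups did not overlap, beside 26.5% of all tested genes.

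The biogenesis group holds the regulators NRF1 and GABP and the factors that copy and transcribe mitochondrial DNA. All 7 had log2 fold changes below 0, from -0.31 to -0.00 (*Tfb2m* lay just above 0 with DESeq2, voom or DESeq2's size factors), and only *Nrf1* fell. *Nrf1* encodes the nuclear respiratory factor and lies on chromosome 6 (30047988 to 30153458, plus strand). It had 28.5, 30.9 and 29.7 CPM in AdLacZ and 24.0, 23.1 and 24.9 CPM in Ad*Lmo3* libraries. The groups were apart by more than the range of either. The mean fell from 29.7 ± 1.21 to 24.0 ± 0.910 CPM (SD, n = 3 each), 1.24-fold, with a log2 fold change of -0.31 (standard error 0.0697, 95% interval -0.47 to -0.15, edgeR adjusted p = 0.0494). This lies just under the threshold. The call was lost in each of the 6 fits without a library (adjusted p from 0.0855 to 0.170) and with DESeq2's size factors in edgeR (0.0506). It was also lost without the filter on low counts (0.0575) and with the replicate number as a block (0.0785).

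*Gabpa*, the DNA-binding subunit of GABP, had 102.7, 105.0 and 111.9 CPM in AdLacZ and 94.2, 95.5 and 96.7 CPM in Ad*Lmo3* libraries. The groups did not overlap, but the difference did not pass the threshold (log2 fold change -0.16, 95% interval -0.30 to -0.02, edgeR adjusted p = 0.189). *Tfam*, which packages mitochondrial DNA and sets its copy number, had 49.5, 49.9 and 55.1 CPM in AdLacZ and 49.7, 53.1 and 48.4 CPM in Ad*Lmo3* libraries, with overlapping groups. Its log2 fold change was -0.03 (95% interval -0.19 to 0.13, adjusted p = 0.849). The DNA polymerase *Polg* (-0.01, adjusted p = 0.972) and the RNA polymerase *Polrmt* (-0.06, adjusted p = 0.659) also had overlapping groups in the edgeR fit. The same held for *Tfb1m* (-0.12, adjusted p = 0.571), an rRNA methyltransferase, and *Tfb2m* (-0.00, adjusted p = 1.00), the initiation factor of the polymerase, of which other genes contain 29.6% of stretches.

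The NRF1 element was carried by 6 of the 36 matched members. *Hspd1*, *Tomm20*, *Timm8b*, *Polrmt*, *Phb* and *Opa1* had log2 fold changes of -0.26, 0.09, -0.02, -0.06, 0.16 and -0.03, and edgeR called none of them, while DESeq2 called *Hspd1* lower. *Lonp1*, *Hspe1* and *Nrf1* had no match in their promoter windows, and *Hspa9* had no window to search. Of 9679 tested genes matched in the promoter table, 1130 had the element, of which 15 were called higher and 6 lower. This is 1.86%, and the median log2 fold change of the 1130 was -0.01. Of all 12766 tested genes 4.28% were called, a base that also holds genes not matched in the promoter table. The ETS element of GABP, CCGGAAGT on either strand, lay in 9 of 44 member promoters (20.5%) and in 3.89% of all promoters. Counted by gene, 22.2% of the matched members (8 of 36) and 9.20% of the tested genes carried it. It was carried by *Timm10*, *Timm23*, *Tomm70a*, *Tfam*, *Polg*, *Mfn1*, *Fis1* and *Phb2*, none of which edgeR called. Of 890 tested genes with this element, 4 were called higher and 8 lower (1.35%), with a median log2 fold change of -0.05.

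The import machinery showed no called gene, where edgeR called 4.28% of all tested genes. Among its 20 members the lowest adjusted p was 0.0876, 8 log2 fold changes were above 0 and 12 below, and 5 members had groups that did not overlap (25.0%, beside 26.5% of all tested genes). Their summed level was 1164 to 1193 CPM in AdLacZ and 1164 to 1206 CPM in Ad*Lmo3* libraries. The 95% intervals excluded a change of 1.5-fold in either direction for 19 of the 20, and for 9212 of all 12766 tested genes. The exception among the 20 was *Timm8a1*, with 54 to 82 counts per library and an interval of -0.29 to 0.59.

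In the TOM complex, the channel protein *Tomm40* had 108.8, 116.0 and 102.5 CPM in AdLacZ and 107.6, 113.5 and 103.8 CPM in Ad*Lmo3* libraries, which overlapped throughout (log2 fold change -0.01, 95% interval -0.17 to 0.15, edgeR adjusted p = 0.958). Its paralog *Tomm40l* had a log2 fold change of 0.13 (adjusted p = 0.349), with 52.0% of its stretches shared with the overlapping gene *Nr1i3*. The receptors *Tomm20* (0.09, adjusted p = 0.578), *Tomm22* (-0.12, adjusted p = 0.342) and *Tomm70a* (0.01, adjusted p = 0.966) were not called in the edgeR fit. *Tomm22* had 80.1, 75.8 and 78.3 CPM in AdLacZ and 74.6, 73.6 and 67.5 CPM in Ad*Lmo3* libraries, without overlap. The small subunits *Tomm5*, *Tomm6* and *Tomm7*, which stabilize the channel, had log2 fold changes of -0.10, -0.01 and -0.14 with adjusted p-values from 0.276 to 0.982. Of *Tomm6*, 67.1% of stretches lie in overlapping genes. *Tomm34*, a cytosolic co-chaperone that hands precursors to the complex, had the lowest adjusted p of the import members. Its level was 32.9, 34.4 and 31.2 CPM in AdLacZ and 37.1, 39.4 and 42.6 CPM in Ad*Lmo3* libraries, higher without overlap, with a log2 fold change of 0.27 (95% interval 0.10 to 0.44) that did not pass the threshold (edgeR adjusted p = 0.0876).

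The small TIM chaperones carry membrane proteins across the intermembrane space. Their log2 fold changes were -0.10 for *Timm9*, -0.19 for *Timm10*, -0.06 for *Timm13*, -0.02 for *Timm8b* and 0.15 for *Timm8a1*, with edgeR adjusted p-values from 0.231 to 0.915. Of these 5 only *Timm9* had groups that did not overlap, at 17.2, 16.3 and 16.7 CPM in AdLacZ and 15.3, 15.3 and 16.1 CPM in Ad*Lmo3* libraries. *Timm9* and *Timm10*, which form 1 ring together, thus both had values below 0 that missed the threshold. In the inner membrane, the TIM23 channel member *Timm23* (-0.09), its partners *Timm17a* (-0.06) and *Timm17b* (0.06), the motor anchor *Timm44* (0.08) and the carrier translocase *Timm22* (-0.00) had adjusted p-values from 0.616 to 0.983. *Timm50*, the presequence receptor of TIM23, had 51.6, 53.3 and 52.9 CPM in AdLacZ and 62.0, 60.0 and 56.5 CPM in Ad*Lmo3* libraries. All 3 Ad*Lmo3* libraries were higher, but the log2 fold change of 0.18 did not pass the threshold (adjusted p = 0.140, edgeR). Other genes contain 52.1% of the stretches of *Timm23* and 39.9% of those of *Timm8a1*.

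**Figure D3:**
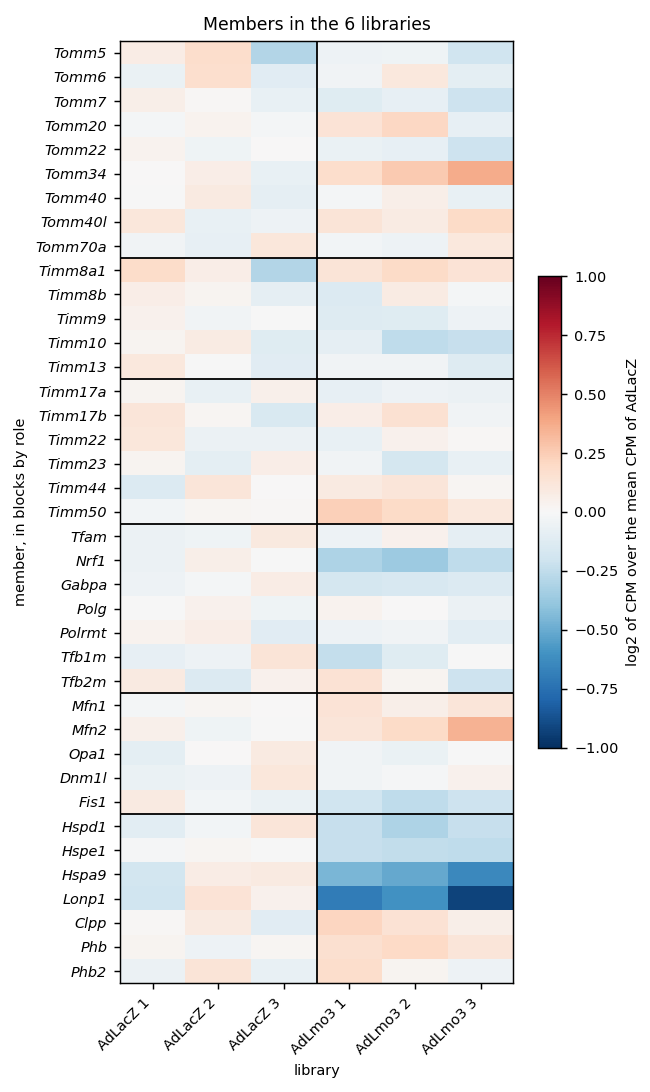
Level of each member (rows, in blocks by role) in each of the 6 libraries (columns), drawn as the log2 of its CPM over the mean CPM of the AdLacZ libraries. Lonp1 and Hspa9 are the darkest blue in all 3 AdLmo3 columns, down to -0.93, while most import members stay pale in all columns.

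Of the 5 fusion and fission genes edgeR called none, where it called 4.28% of all tested genes. In 3 of the 5 the groups did not overlap, beside 26.5% of all tested genes. The outer membrane mitofusin *Mfn2* had 230, 216 and 222 CPM in AdLacZ and 243, 254 and 283 CPM in Ad*Lmo3* libraries, all higher (log2 fold change 0.22, 95% interval 0.05 to 0.40, edgeR adjusted p = 0.150). *Mfn1*, the other mitofusin, had 68.0, 69.8 and 69.1 CPM in AdLacZ and 75.8, 71.8 and 74.9 CPM in Ad*Lmo3* libraries (log2 fold change 0.10, adjusted p = 0.341). Both mitofusins were thus higher without overlap but did not pass the threshold, and per length *Mfn2* stood at 3.80 ± 0.178 times *Mfn1* in AdLacZ and 4.13 ± 0.342 times in Ad*Lmo3* libraries, with overlap. *Fis1*, the outer membrane fission adaptor, had 102.0, 93.7 and 91.2 CPM in AdLacZ and 83.4, 80.4 and 83.0 CPM in Ad*Lmo3* libraries. The groups of *Fis1* were apart in the other direction (log2 fold change -0.22, 95% interval -0.37 to -0.07, adjusted p = 0.106 by edgeR). The inner membrane fusion GTPase *Opa1* (-0.03, adjusted p = 0.837) and the fission GTPase *Dnm1l* (-0.00, adjusted p = 0.990) had overlapping groups and intervals from -0.19 to 0.16.

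Levels were compared between genes only per length of merged exons, as TPM (counts divided by exon length and scaled to the same total in every library). This length covers all annotated exons of a gene, so the order of the genes and the ratios between them depend on it. In AdLacZ libraries, *Hspa9* stood highest at 1987 ± 192 TPM, followed by *Hspd1* at 899 ± 70.4, *Lonp1* at 785 ± 88.4 and *Timm8b* at 329 ± 19.5 TPM (SD, n = 3 each). The libraries of *Hspd1* and *Lonp1* overlapped in AdLacZ, and those of *Lonp1* and *Timm8b* did not. In Ad*Lmo3* libraries the order of these 4 was kept, at 1300 ± 108, 714 ± 29.0, 447 ± 52.4 and 307 ± 18.8 TPM, and *Hspd1* no longer overlapped with *Lonp1*. The genes that fell thus included the members ranked 1 and 3 by level and also *Hspe1*, ranked 11, and *Nrf1*, ranked 38 of 39 at 11.6 ± 0.409 TPM in AdLacZ. Only *Timm8a1* stood lower, at 5.53 ± 0.936 TPM. The paralogs *Timm17a* and *Timm17b* were present at a ratio of 1.04 ± 0.126 in AdLacZ and 0.950 ± 0.0604 in Ad*Lmo3* libraries. The ratio of *Phb2* to *Phb* was 3.24 ± 0.355 and 3.00 ± 0.234, and that of *Tomm40* to *Tomm40l* 3.19 ± 0.328 and 2.88 ± 0.234 (SD, n = 3 each), and the groups overlapped in all 3 ratios. Of the merged exons of *Tomm40l*, 64.3% overlap *Nr1i3*, and counts assigned to several genes were left out, so its level is less certain.

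**Figure D4:**
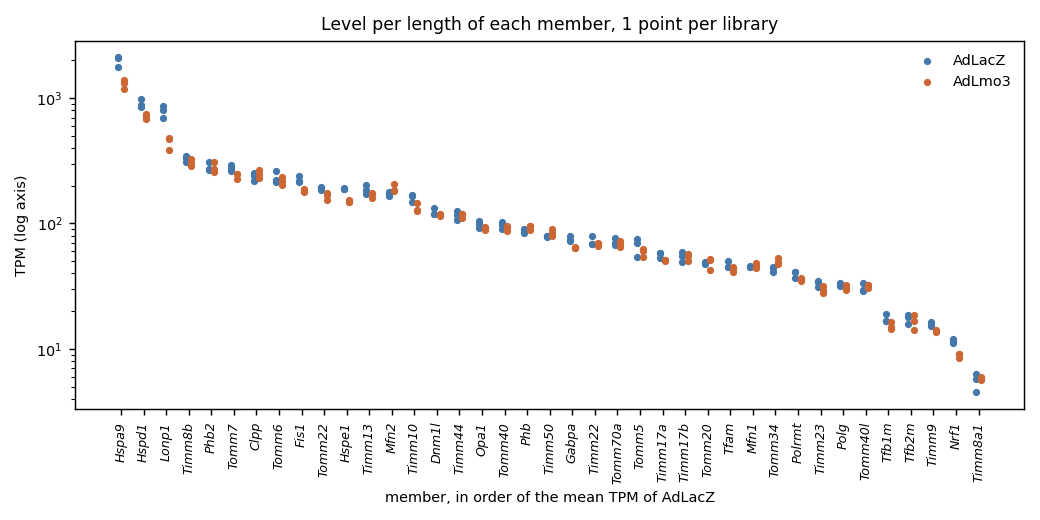
TPM on a log axis (y axis) of each member in each library (1 point per library, coloured by group), in order of the mean of the AdLacZ libraries on the x axis. Hspa9, Hspd1 and Lonp1 stand above the other 36 members in AdLacZ libraries, and Nrf1 and Timm8a1 form the low end.

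A list of 78 related genes of the same 4 systems was read in the same fit, and 74 of the 76 found in the tables were tested. EdgeR called none of the 74, where it called 4.28% of all tested genes. At an unadjusted p under 0.05 there were 13 (17.6%, beside 20.6% of all tested genes). In 22 of the 74 the groups did not overlap (13 higher, 9 lower), which is 29.7%, beside 26.5% of all tested genes. DESeq2 called 4 of the 74, 2 in each direction, where it called 8.87% of all genes it tested. The median log2 fold change of the 74 was 0.04 in edgeR, and 44 lay above and 30 below 0. *Ppargc1b*, a coactivator of nuclear receptors that drives mitochondrial biogenesis, had 11.1, 17.9 and 12.5 CPM in AdLacZ and 34.8, 24.2 and 20.7 CPM in Ad*Lmo3* libraries. Its log2 fold change of 0.94 (standard error 0.228, 95% interval 0.42 to 1.47) was the largest of the list but missed the threshold in edgeR (adjusted p = 0.0610), where DESeq2 called it (adjusted p = 0.000198). Of the 6 edgeR fits without a library, only 1 called it, that without Ad*Lmo3* replicate 3 (adjusted p = 0.0448). The highest adjusted p of these 6 fits was 0.220. Of the 7 alternatives that used all libraries, 2 called it, DESeq2 and edgeR without the filter on low counts (0.0176). The rest of the 7 did not call *Ppargc1b*, with adjusted p-values up to 0.0765. Its relative *Ppargc1a* had overlapping groups (0.08, adjusted p = 0.669), and their partner receptor *Esrra* had 86.4, 91.6 and 77.0 CPM in AdLacZ and 98.5, 115.0 and 97.6 CPM in Ad*Lmo3* libraries (0.29, adjusted p = 0.129).

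The related genes that follow were chosen after their values had been seen. *Dnaja3*, the J-protein partner of mtHSP70, had 209, 249 and 239 CPM in AdLacZ and 188, 194 and 172 CPM in Ad*Lmo3* libraries, all below the lowest AdLacZ library. Its log2 fold change of -0.33 did not pass the threshold in edgeR (adjusted p = 0.0757) and did in DESeq2 (adjusted p = 0.0109). *Atf5*, a transcription factor of the mitochondrial unfolded protein response, had 433, 452 and 418 CPM in AdLacZ and 359, 367 and 279 CPM in Ad*Lmo3* libraries, likewise without overlap (-0.38, adjusted p = 0.0980 in edgeR and 0.0130 in DESeq2). In the other direction were *Immp2l*, a subunit of the inner membrane peptidase (0.35, adjusted p = 0.0757 in edgeR and 0.0484 in DESeq2), and the cristae organizer *Chchd6* (0.27, adjusted p = 0.0865 in edgeR). All 4 had groups that did not overlap, but they had been picked by their values. Of the 17 related quality control genes, *Dnaja3* and *Atf5* were the only 2 without overlap (11.8%, beside 26.5% of all tested genes). In those 17, 9 log2 fold changes lay above 0 and 8 below.

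**Figure D5:**
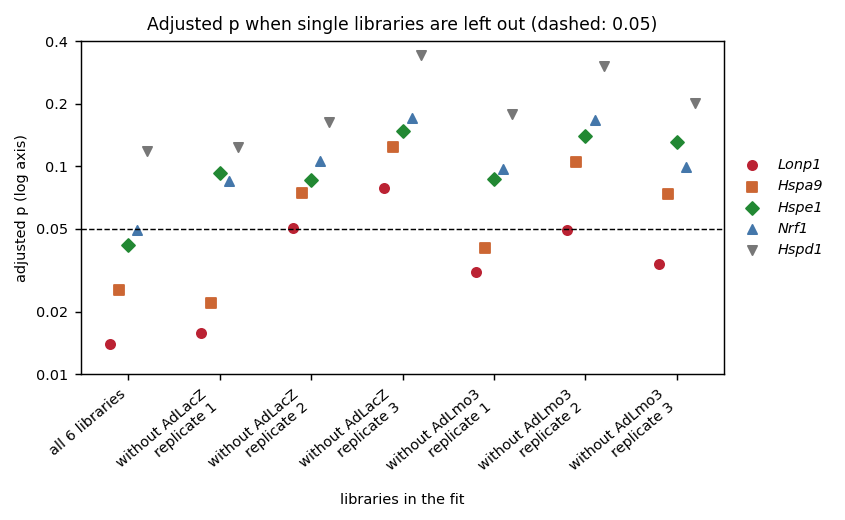
Adjusted p from edgeR (y axis, log scale; dashed line, 0.05) of 5 members in the fit of all 6 libraries and in the 6 fits that each leave out a single library (x axis). Lonp1 stays under the line in 4 of the 6 reduced fits and Hspa9 in 2, while Hspe1, Nrf1 and Hspd1 lie above it in all 6.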

How the data were processed

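The authors aligned reads of 75 bp with STAR 2.5.0b to mm10 (per the submitters' processing notes) and deposited counts per gene symbol for each library, without normalization; the counting program, its strand setting and the annotation are not given in the sources used here. Counts assigned to no gene or to several genes were left out. Genes were filtered with filterByExpr, scaled by TMM and tested with edgeR 4.0.16 (R 4.3.3; quasi-likelihood, group only) in all 6 libraries, with Benjamini-Hochberg adjustment over 12766 genes and a threshold of 0.05. CPM are TMM-normalized, and TPM use merged exon lengths from GENCODE (GRCm38) without TMM. Same-numbered libraries were not treated as pairs. Alternatives were DESeq2 1.42.0, limma 3.58.1 voom, other scaling and filters, a replicate block and leaving out each library. The procedure was tested on simulated data. Members and lists were chosen with earlier results of these data known. Any member could be named, with called related genes, *Ppargc1a*, *Ppargc1b*, *Esrra*, *Lmo3* and cell type markers. Shared stretches are windows of read length whose sequence recurs in the exons of other genes. Floors of 3 counts cover counting error only. Figures were drawn with matplotlib 3.10.9.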

Additional observations from a re-analysis of the deposited data

How the results depend on the processing

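No member was called higher under any of the 13 alternatives. The number called lower, 4 as reported, was 5 with DESeq2, 3 with DESeq2's size factors in edgeR, 2 without a filter on low counts and 0 to 2 when a library was left out. *Lonp1* and *Hspa9* were called in all 7 alternatives that used all libraries. Over all tested genes, 346 higher and 201 lower became 672 and 438 with DESeq2, and 55 to 350 and 23 to 150 when a library was left out. Related genes called were 2 higher and 2 lower with DESeq2, 1 higher without the filter and 0 to 1 higher when a library was left out. The median log2 fold change of the members was -0.02 (-0.0557 to -0.0206 when a library was left out). The sign changed under some alternative in 13 members, with estimates of at most 0.0950 on the log2 scale as reported: leaving out libraries gave -0.221 to 0.00327 for *Tomm5*, -0.0692 to 0.0861 for *Tomm6*, -0.0533 to 0.0362 for *Tomm40*, -0.0349 to 0.0682 for *Tomm70a*, -0.0779 to 0.0363 for *Timm8b*, -0.00904 to 0.123 for *Timm17b*, -0.0341 to 0.0572 for *Timm22*, -0.0733 to 0.020 for *Tfam*, -0.0264 to 0.0246 for *Polg*, -0.0790 to 0.0931 for *Tfb2m*, -0.0790 to 0.0120 for *Opa1*, -0.0355 to 0.0583 for *Dnm1l* and -0.00782 to 0.123 for *Phb2*. *Tfb2m* was 0.00259 with DESeq2, 0.0119 with voom and 0.00161 with DESeq2's size factors. The causes were not tested. With the replicate number as a block, 2 members were called lower (*Lonp1*, adjusted p = 0.0206, and *Hspa9*, 0.0492), *Hspe1* had 0.0727 and *Nrf1* 0.0785. Same-numbered libraries correlated by 0.0508, 0.225 and 0.234 in their deviations from the group means, and libraries of unlike number by -0.314 to 0.175. AdLacZ replicates 2 and 3 each correlated best with the Ad*Lmo3* library of the same number, and AdLacZ replicate 1 with Ad*Lmo3* replicate 3 (0.122). Whether the numbers pair the samples was thus not settled, and the main fit did not pair them. At 54 to 82 counts per library, the interval of *Timm8a1* reached past 1.5-fold. Protein sequences were not used here.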

Other observations

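Among the tested genes, 18 had an ER stress element on either strand in a RefSeq promoter, a motif added after the promoters had been read. Of these 18, 8 were called lower and 0 higher by edgeR (44.4%, beside 4.28% of all tested genes, matched in the promoter table or not). Their median log2 fold change was -0.38. Earlier results of these data were known when lists were chosen, so this share is a description and was not tested. The element was in none of the 44 member promoters. Of 262 tested genes with the C/EBP-ATF response element, 9 were called higher and 12 lower (8.02%), and no member promoter carried it. Of 58 tested genes with the heat shock element, which the promoters of *Hspd1* and *Hspe1* share, 1 was called higher and 1 lower (3.45%). The CRE-like element was in 99 tested genes, of which 3 were called higher and 3 lower (6.06%). Their median log2 fold change was -0.06.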
